A study of Zea mays with 58 samples.

Results

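The genes described here rose in maize roots within 30 min of a nitrogen supply. After 120 min they were still above their level after 5 min. They number 80 of the 46335 features of the count table. They were chosen by measured values. L, the level used for this, is the mean over a group's libraries of log2(CPM + 1), where CPM is the count scaled to a common library total. A gene was taken if its L reached 3 in at least 1 group, was higher by 1 or more in N medium after 30 min than after 5 min and again after 120 min than after 5 min, and differed by 1 or more between N and noN medium on average over 60, 90 and 120 min. Of the 16512 features past the level threshold, these 80 met the others too, and so did 11 more that were left out because the authors' deposited network table lists them as regulators. A difference of 1 in L is about a 2-fold change for genes well above 1 CPM.

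The plants were 10-day-old seedlings of the inbred line B73, grown in paper rolls and then in nitrate-free hydroponic medium, with the endosperm, the store of the seed, cut away 2 days before sampling. In the N group they were given KNO3 and NH4NO3, each at 20 mM, with a heavy isotope in part of the nitrogen, and in the noN group KCl at 20 mM. Roots of both groups were taken at 9 times between 5 and 120 min, and noN roots also at 0 min. This gives 58 libraries in 19 groups of 3, with 4 for noN after 120 min. A replicate pooled 3 seedlings, so variation between plants is averaged within it. All seedlings of both groups had been starved of nitrogen. The N medium differs from the noN medium in nitrate, in ammonium, in chloride and in total salt, and these cannot be told apart. Each library held 1978039 to 3790442 counts, with a median of 2617921.

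Roots sense nitrate at the plasma membrane through transporters that also act as receptors, and calcium-dependent kinases pass the signal to NIN-like transcription factors, which are then held in the nucleus, as worked out in Arabidopsis. The first genes to respond code for nitrate transporters, nitrate and nitrite reductases, enzymes that supply reducing power, and further regulators. Ammonium is taken up by its own transporters, is built into glutamine, and changes gene expression in ways that partly overlap with nitrate. Which of the 80 genes belong to these groups is not given here, because none of their identifiers could be paired with a name, so no gene below is given a role. For the same reason the root label was not checked against marker genes.

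The values that chose the genes are a description and not a test. The difference in L between N after 30 min and N after 5 min ran from 1.01 to 7.02 with a median of 1.94. Between N after 120 min and N after 5 min it ran from 1.07 to 8.32 with a median of 2.36. The mean difference between N and noN after 60 to 120 min ran from 1.01 to 6.505 with a median of 2.11. At the 30 min threshold the nearest gene inside had 1.01 and the nearest outside 0.99, and at the threshold on N against noN these were 1.01 and 0.98. At the 120 min threshold they were 1.07 and 0.95, and at the level threshold 3.02 and 2.87. Genes that failed a single threshold numbered 147 for the N against noN difference, 124 for the 30 min difference, 12 for the 120 min difference and 7 for the level. With L from TMM scaled counts (TMM corrects library totals for a few very abundant genes) the rule found 80 genes again, of which 77 were shared.

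**Figure D1:**
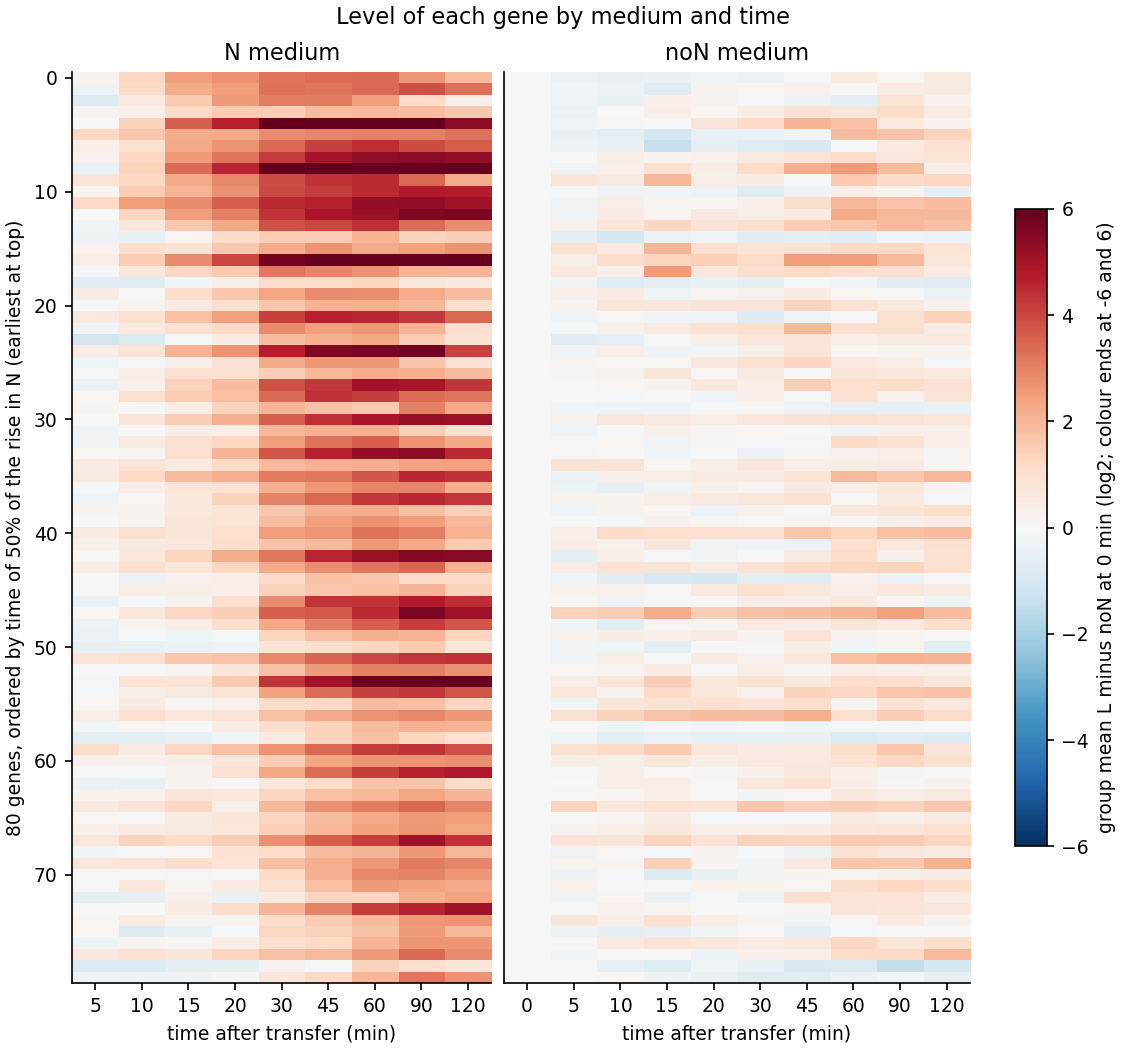
Group mean L of each of the 80 genes minus its L in noN roots at 0 min, in N medium (left) and noN medium (right), with time after transfer in minutes across and genes down, ordered by the time at which 50% of the rise in N was reached. Red is higher and blue lower than noN at 0 min on a log2 scale that ends at 6 and -6; most rows turn red in N after 20 to 30 min and stay red to 120 min, while noN rows stay pale.

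In N medium the genes climbed in steps that were spread over the first hour. The median change in L was 0.35 between 5 and 10 min, 0.45 between 10 and 15 min, 0.41 between 15 and 20 min, 1.01 between 20 and 30 min, 0.46 between 30 and 45 min, 0.36 between 45 and 60 min, 0.09 between 60 and 90 min and -0.35 between 90 and 120 min. Between 20 and 30 min 79 of the 80 genes went up, the step that the rule bears on most, and between 90 and 120 min 68 went down. In mean L over the 80 genes, replicate 2 of N after 30 min had 5.88, against 5.24 and 5.20 in its group. Replicate 3 of N after 60 min had 5.86, against 6.38 and 6.62 in its group and 6.14 to 6.49 after 90 min. The steps to and from these times rest in part on those libraries. By straight lines between group means, 50% of the rise was reached at a median of 25.6 min, with 12.2 min for the earliest gene and 50.6 min for the latest. By 20 min 20 genes had passed this point, by 30 min 58, by 45 min 76 and by 60 min all 80.

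The group mean was highest after 30 min for 2 genes, after 45 min for 8, after 60 min for 25, after 90 min for 35 and after 120 min for 10. The division between 60 and 90 min depends in part on the low replicate 3 of N after 60 min, and was not worked out without it. The rise in L between 5 min and the highest time had a median of 3.02, lay between 1.70 and 8.67, and was 3 or more for 41 genes and 5 or more for 14. At 120 min a median of 83.1% of the rise on the log2 scale was kept. The share kept was 27.8% for the gene that lost most, and L had dropped by 1 or more in 18 genes and by less than 0.5 in 33. Genes that were highest after 30 or 45 min kept a median of 62.4%, those highest after 60 min 69.0% and those highest after 90 min 88.9%. This order is partly built in. A later highest time leaves less time to fall, and a gene highest after 120 min keeps all of its rise by definition. The rule asks only for a difference of 1 after 120 min, so a large loss after the highest time was possible for genes with a large rise.

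**Figure D2:**
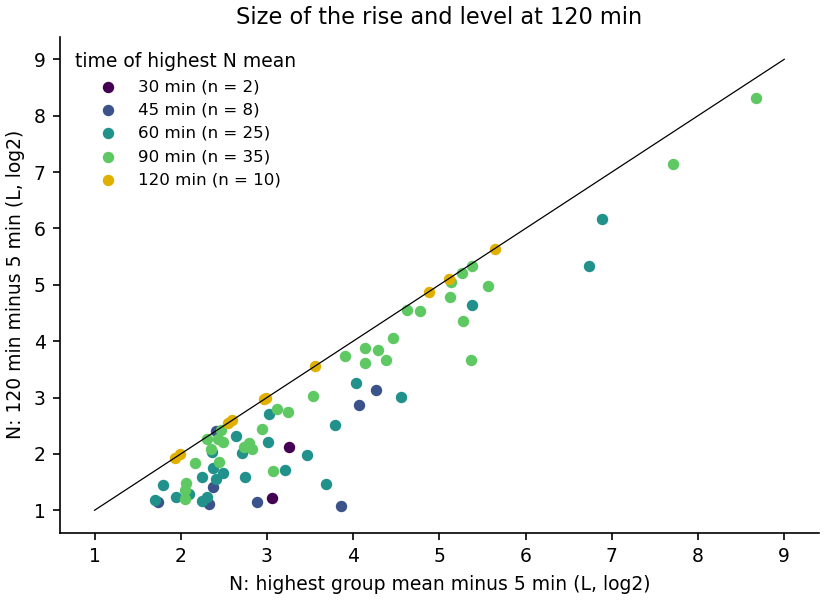
Difference in L between N after 120 min and N after 5 min (vertical, log2) against the difference between the highest N group mean and N after 5 min (horizontal, log2), 1 point per gene, coloured by the time of the highest mean. Points on the line kept all of their rise; the 18 genes that had dropped by 1 or more lie 1 or more below it, and the rule itself keeps every point above 1 on the vertical axis.

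In noN medium the same genes drifted up by much less. Relative to noN at 0 min, the median L in N was 0.01 after 5 min, 0.47 after 10 min, 0.72 after 15 min, 1.07 after 20 min, 2.22 after 30 min, 2.63 after 45 min, 2.74 after 60 min, 2.96 after 90 min and 2.64 after 120 min. In noN it was -0.02 after 5 min, 0.20 after 10 min, 0.18 after 15 min, 0.19 after 20 min, 0.32 after 30 min, 0.51 after 45 min, 0.74 after 60 min, 0.65 after 90 min and 0.54 after 120 min. After 120 min the N group mean was above every noN group mean for 75 of the 80 genes. The rule used N after 120 min and both media at 60 to 120 min, so this count is partly built in. The same holds for the shares of counts at 60 to 120 min given below. The rule averages N against noN over 60 to 120 min, so a gene can be near noN after 120 min. Zm00001d011656, named after its values were seen, then had L of 1.63 in N and 1.57 in noN. As a share of all counts the 80 genes made up 1.61% to 2.42% in the N libraries of 60 to 120 min and 0.245% to 0.334% in the noN libraries of these times. At 45 min they made up 1.54% to 1.56% in N and 0.200% to 0.232% in noN. In pooled tissue, more cells that hold a transcript and more transcript per cell cannot be told apart.

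**Figure D3:**
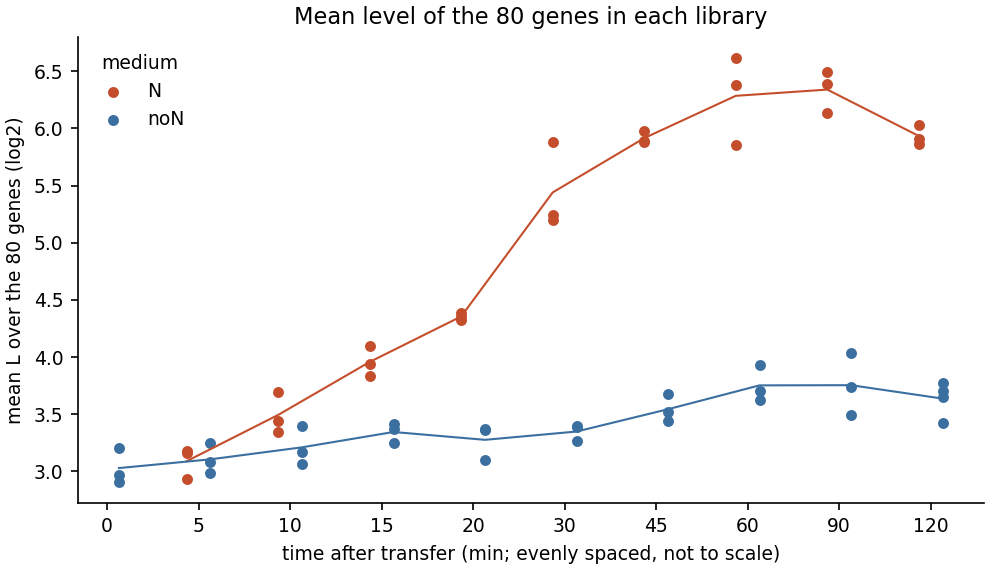
Mean L over the 80 genes in each library (points, vertical, log2) by time after transfer in minutes (horizontal, evenly spaced, not to scale), with lines through the group means of N (orange) and noN (blue). N libraries after 45 min lie between 5.88 and 5.97 and noN libraries of that time between 3.44 and 3.68. From 15 min on no N library overlaps the noN libraries of its time. The rule used N after 30 min and both media at 60 to 120 min, so the separation at those times is partly built in. Apart from the level threshold, the libraries of 15, 20 and 45 min did not choose the genes.

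The rule used the N libraries of 5, of 30 and of 60 to 120 min and the noN libraries of 60 to 120 min, so the times of 10, 15, 20 and 45 min hold libraries that, apart from the level threshold, did not choose the genes. All 80 genes passed the filter on low counts and were tested with edgeR's quasi-likelihood test across the 18872 genes that passed it, with Benjamini-Hochberg adjustment over all of them and calls at an adjusted p of 0.05. These comparisons share libraries: noN and N at each time enter the comparison at that time and their mean, and N after 10 min enters each change within N. The noN libraries of 0 to 45 min also differ from the rest in makeup. Their mean log2 exon length, weighted by counts, was 11.01 to 11.11, against 10.92 to 10.997 in the N libraries of 5 to 45 min and 10.97 to 10.999 in the noN libraries of 60 to 120 min. That makeup and the medium cannot be told apart in any comparison that sets N against noN at these times.

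Within N medium, where no noN library enters, 75 of the 80 genes were higher after 45 min than after 10 min, against 5.04% of all tested genes called higher and 3.44% called lower. All 80 estimates were positive, with a median of 2.28 on the log2 scale against -0.01 over all tested genes, and in 78 genes every library of 45 min lay above every library of 10 min, against 13.7% of all tested genes. Leaving out each of the 6 libraries in turn, 65 of the 75 kept their call every time. The change was 2 or more for 50 of the called genes and 3 or more for 28. The 5 genes that did not pass the test, named here after their values were seen, were Zm00001d021216, Zm00001d026509, Zm00001d031769, Zm00001d050872 and Zm00001d053348, with estimates of 1.79, 1.72, 0.99, 1.89 and 0.79.

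The same comparison at earlier times showed when the change became detectable. At 20 min against 10 min 26 genes were higher, against 1.29% of all tested genes, with a median of 0.96, and 50 genes were higher at an unadjusted p under 0.05. Without replicate 2 of N after 10 min the 26 became 17. At 15 min against 10 min 4 genes passed, of 11 called higher among all tested genes (0.0583%), and the median was 0.59, with 32 genes higher at an unadjusted p under 0.05. Those 4, named after their values were seen, were Zm00001d000849 (adjusted p = 0.004687 in edgeR), Zm00001d034345 (0.004687), Zm00001d044138 (0.006915) and Zm00001d003463 (0.01541). None of the 80 genes passed without replicate 1 or without replicate 2 of N after 10 min, so the calls after 15 min depend on those libraries.

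The 2 genes with the smallest p for N after 45 min against 10 min were followed library by library. Zm00001d025015, on chromosome 10 from base 99806303 to 99812704 of the plus strand in AGPv4, has exons of 4835 bases in all. Its CPM (TMM scaled) in N medium was 15.6, 22.7 and 19.6 after 10 min, 34.8, 33.1 and 43.9 after 15 min, 88.4, 76.0 and 73.6 after 20 min, and 453, 457 and 476 after 45 min. In noN medium it was 13.1, 16.0 and 15.9 after 10 min, 12.3, 14.5 and 14.1 after 15 min, 15.5, 15.5 and 14.7 after 20 min, and 13.97, 13.2 and 23.6 after 45 min. Every N library of 15, 20 and 45 min was above every noN library of its time, and after 10 min the N and noN libraries overlapped. Its mean was 462 ± 12.3 CPM in N after 45 min, against 19.3 ± 3.55 CPM in N after 10 min (SD, n = 3 each), a log2 change of 4.58 (SE 0.21, edgeR adjusted p = 1.882e-21). N exceeded noN by 1.45 after 15 min (adjusted p = 1.794e-06 in edgeR), by 2.38 after 20 min and by 4.77 after 45 min, while the 0.37 after 10 min did not pass (adjusted p = 0.2766). In noN the change between 0 and 45 min was 0.03 (edgeR adjusted p = 0.9422).

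Zm00001d032546 lies on chromosome 1 from base 230134398 to 230139442 of the minus strand, with exons of 2050 bases. In N medium it had 36.8, 40.7 and 32.9 CPM after 10 min, 52.2, 40.7 and 41.7 CPM after 15 min, 63.9, 68.3 and 66.6 CPM after 20 min, and 242, 223 and 220 CPM after 45 min. In noN medium it had 36.9, 40.7 and 33.8 CPM after 10 min, 45.4, 50.2 and 51.4 CPM after 15 min, 31.7, 35 and 35.1 CPM after 20 min, and 38.03, 32.1 and 36.9 CPM after 45 min. The N and noN libraries overlapped after 10 and 15 min and were apart after 20 and 45 min, so it separated later than Zm00001d025015. Its mean was 228 ± 11.8 CPM in N after 45 min, against 36.8 ± 3.90 CPM in N after 10 min (SD, n = 3 each), a log2 change of 2.63 (SE 0.13, edgeR adjusted p = 7.608e-20). N exceeded noN by 0.97 after 20 min (adjusted p = 7.267e-07 in edgeR) and by 2.68 after 45 min, and differed by -0.13 after 15 min (adjusted p = 0.4847).

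**Figure D4:**
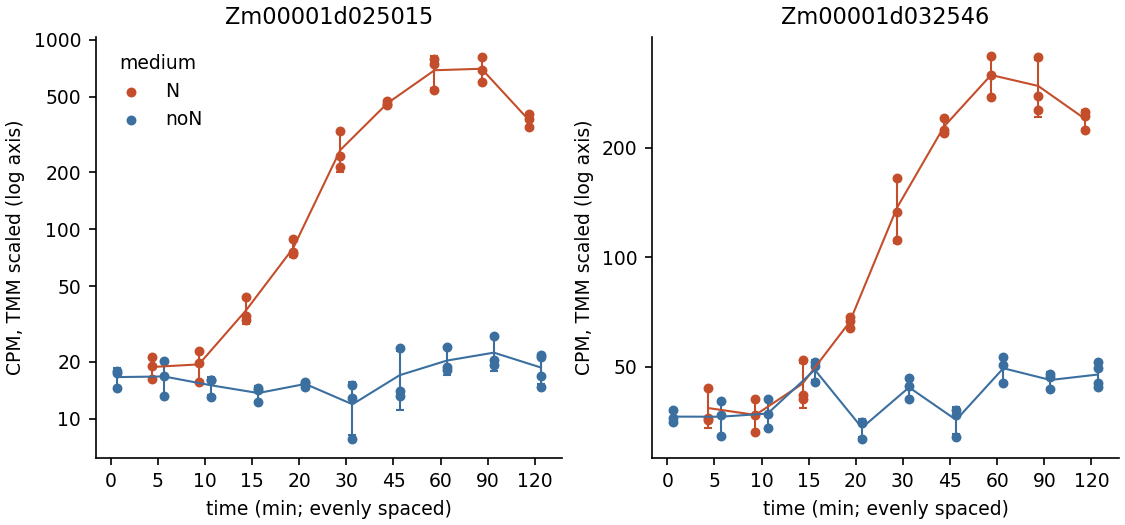
CPM (TMM scaled, log axis) of Zm00001d025015 (left) and Zm00001d032546 (right) by time after transfer in minutes, evenly spaced, in N (orange) and noN (blue). Points are libraries, lines join group means and bars are the SD (n = 3, with 4 for noN after 120 min); both genes part from noN by 20 min and reach 462 and 228 CPM in N after 45 min.

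Set against noN medium at the same time, 15 of the 80 genes were higher after 10 min (7.56% of all tested genes), 29 after 15 min (14.7%), 48 after 20 min (16.4%) and 72 after 45 min (13.4%). The median log2 difference was 0.38 after 10 min, 0.60 after 15 min, 1.08 after 20 min and 2.67 after 45 min, where all 80 estimates were positive, and the median over all tested genes was -0.03 after 45 min. Lower calls were made for none of the 80 genes after 10 and 45 min (4.18% and 10.2% of all tested genes), with 1 gene lower at an unadjusted p under 0.05 after 10 min. After 15 min 2 of the 80 were lower (12.5% of all tested genes), with 5 at an unadjusted p under 0.05, and after 20 min 1 was lower (13.8%). Without replicate 3 of noN after 10 min the 15 genes became 9. Every N library was above every noN library for 19 genes after 10 min (15.3% of all tested genes), for 33 after 15 min (19.8%), for 50 after 20 min (21.4%) and for 74 after 45 min (20.3%). The count of the 80 genes lay nearest to the share of all genes after 10 min and farthest from it after 45 min. Averaged over the 4 times, 66 genes were higher in N, against 28% of all tested genes, with a median of 1.16, or 1.15 without the gene that has groups at 0 counts, and 1 was lower, against 28.1%.

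**Figure D5:**
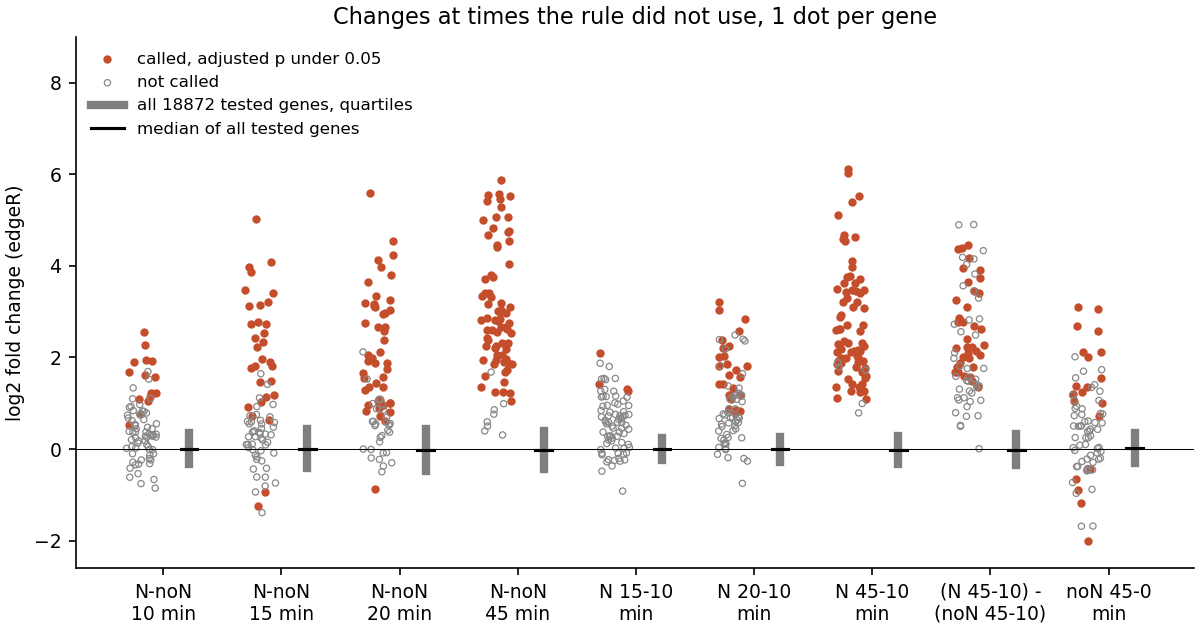
Fitted log2 fold change (vertical) of 79 of the genes in 9 comparisons (horizontal) at times the rule did not use, each written as first group minus second group; filled points passed an adjusted p of 0.05 in edgeR and open points did not. Grey bars span the quartiles of all 18872 tested genes with their median as a line; Zm00001d054060 is left out because it has groups without a count. The genes move up with time in both the N against noN and the N against N comparisons, and in noN alone they scatter around 0.50.

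Genes first called above noN after 10 min had more counts than those called last or not at all. First calls came after 10 min for 15 genes, after 15 min for 16, after 20 min for 17 and after 45 min for 24, and 8 were called at none of these times. The median count per N library of 45 min was 811 in the genes first called after 10 min, 145.5 in those first called after 15 min, 307 after 20 min and 69.0 after 45 min, and 32.5 in the 8 that were not called. The genes first called after 10 min had a median rise of 4.07 in L. It was 4.58 in those first called after 15 min, 2.82 after 20 min and 2.69 after 45 min, and 2.37 in the 8 not called. The median time of 50% of the rise was 17.9 min in the genes first called after 10 min, 23.5 min after 15 min, 24.8 min after 20 min and 27.9 min after 45 min, and 29.6 min in the 8 not called. Neither the counts nor the rise followed the order of the first calls throughout, and the part of each in the calls was not tested. Of the 15 calls after 10 min, 7 were kept in every fit that left out 1 of the 6 libraries. The others were lost in 1 or more of these fits, and Zm00001d010640 was lost in all 6, so their first times are uncertain. A first call was not always followed by a call at the next time. Zm00001d002126 and Zm00001d000021, named after their values were seen, were called after 10 and 20 min but not after 15 min.

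The increase of the N effect over time was tested directly, as the change between 10 and 45 min in N minus the same change in noN. A constant difference between N and noN libraries cancels in it, but the makeup given above was not constant. The count-weighted log2 exon length was 10.97 to 10.997 in the N libraries of 10 and 45 min, 11.01 to 11.05 in the noN libraries of 10 min and 11.08 to 11.11 in those of 45 min. In this test 36 of the 80 genes had a larger change in N, against 0.721% of all tested genes higher and 0.191% lower, and 66 had an unadjusted p under 0.05. Leaving out each of the 12 libraries in turn, 25 of the 36 kept their call every time. Without replicate 2 of noN after 10 min the 36 became 25. With the trend with gene length removed from each library, 34 genes passed. All 80 estimates were positive, with a median of 2.10, or 2.09 without the gene that has groups at 0 counts, against -0.01 over all tested genes. Zm00001d025015 changed by 4.40 more in N (SE 0.30, edgeR adjusted p = 8.327e-15) and Zm00001d032546 by 2.69 more (SE 0.19, edgeR adjusted p = 1.723e-14). Both had been chosen on N after 45 against 10 min, whose libraries enter this test. Zm00001d031769, Zm00001d050872 and Zm00001d053348, named after their values were seen, passed neither this test nor those of the mean N effect and of the change within N, which share libraries with it.

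In noN medium, where no nitrogen was given, the genes were not all flat. Between 0 and 45 min 15 of the 80 were higher after 45 min (5.37% of all tested genes) and 5 were lower (8.22%), with a median of 0.50 against 0.03 over all tested genes. The 15 risen genes changed by 0.72 to 3.10 in noN with a median of 1.55. In N after 45 min they stood a median of 1.97 above noN. There 12 of them were called higher, against 13.4% of all tested genes. The 5 fallen genes, named after their values were seen, were Zm00001d000021 (-0.44), Zm00001d009631 (-0.65), Zm00001d029126 (-0.90), Zm00001d003463 (-1.18) and Zm00001d031769 (-2.00). Of these 5, 4 were called above noN in N after 45 min, as were 56 of the 60 genes not called between 0 and 45 min in noN. The noN libraries of 45 min enter both comparisons, so a high or low noN level there shifts the difference from N by itself. When each of the 6 libraries was left out in turn, Zm00001d029126 kept its call each time. Zm00001d003463 lost it without replicate 3 of noN at 0 min or replicate 1 of noN after 45 min. Zm00001d009631 and Zm00001d031769 lost it in 4 and in 5 of the 6 fits, and Zm00001d000021 lost it each time. Over all noN times up to 45 min together, 23 of the 80 genes changed, against 18.2% of all tested genes. The 20 calls between 0 and 45 min became 13 without replicate 2 of noN at 0 min, 12 without replicate 1 of noN at 45 min and 13 without its replicate 3.

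Zm00001d003463, singled out after its values were seen, was higher with time in N, and in noN lower after 45 min than at 0 min. It lies on chromosome 2 from base 45040121 to 45040780 of the plus strand, with 660 exon bases. In N it had 23.5, 34.9 and 25.4 CPM after 10 min, 95.4, 50.6 and 78.4 CPM after 15 min, 95.8, 85.0 and 122 CPM after 20 min, and 249, 272 and 255 CPM after 45 min. In noN it had 7.38, 8.79 and 10.1 CPM after 10 min, 3.29, 5.68 and 4.09 CPM after 15 min, 4.66, 11.4 and 8.58 CPM after 20 min, and 3.86, 7.24 and 6.93 CPM after 45 min, against 11.1, 11.8 and 17.6 CPM at 0 min. No N library of 10 to 45 min overlapped the noN libraries of its time. N exceeded noN by 1.68 after 10 min (SE 0.32, edgeR adjusted p = 0.0004215) and by 5.42 after 45 min (SE 0.32, edgeR adjusted p = 1.408e-17). In noN medium the level after 45 min was below that at 0 min by a log2 change of -1.18 (SE 0.36, edgeR adjusted p = 0.02252; up to 0.1527 without 1 library). At 120 min noN libraries had 23.9, 13.4, 25.7 and 48.7 CPM, above those of 45 min. The makeup of the noN libraries differed between these times. Their count-weighted log2 exon length was 11.03 at 0 min, 11.08 to 11.11 after 45 min and 10.98 to 10.999 after 120 min. What part this makeup had in the levels of this gene was not tested.

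Zm00001d018161, also singled out after its values were seen, had the largest rise of the 80 on the L scale, 8.67 between 5 and 90 min in N. It lies on chromosome 5 from base 215727084 to 215730071 of the minus strand, with 2289 exon bases. In N it had 2.74, 18.02 and 23.4 CPM after 10 min, 54.8, 43.8 and 54.9 CPM after 15 min, 121, 102 and 135 CPM after 20 min, and 1121, 985 and 961 CPM after 45 min. In noN it had 1.70, 16.3 and 2.33 CPM after 10 min, 8.37, 6.31 and 8.19 CPM after 15 min, 3.73, 3.66 and 8.17 CPM after 20 min, and 7.43, 13.5 and 48.8 CPM after 45 min. Replicate 2 after 10 min and replicate 3 after 45 min stood above the other noN libraries of their times, and the N and noN libraries overlapped after 10 min only. N exceeded noN by 2.74 after 15 min (SE 0.55, edgeR adjusted p = 0.0002558) and by 5.46 after 45 min (SE 0.53, edgeR adjusted p = 5.932e-11). In N after 120 min it still had 1017, 1244 and 1003 CPM, and 95.9% of its rise in L was kept.

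Zm00001d010728 on chromosome 8 (126076102 to 126078343, plus strand, 1266 exon bases) was the single gene called lower in N on average over 10, 15, 20 and 45 min, by -0.42 (SE 0.16, edgeR adjusted p = 0.01917), and is named for that reason. Without replicate 3 of noN after 10 min, or of noN after 20 min, it did not pass, with adjusted p of up to 0.07227 in edgeR. It had 15.8, 24.4 and 20.7 CPM in N after 15 min, against 34.96, 49.5 and 32.8 CPM in noN, and 32.4, 17.99 and 19.3 CPM in N after 20 min, against 39.7, 30.9 and 56.4 CPM in noN. The noN libraries were the higher ones, with an overlap after 20 min, and the lower calls in N after 15 min and after 20 min were lost in 3 and in 4 of the 6 fits that left out a library. In noN it reached 65.4, 44.4 and 42.9 CPM after 45 min, against 11.1, 10.03 and 14.03 CPM at 0 min, a log2 change of 2.11 (SE 0.34, edgeR adjusted p = 1.977e-05). In N it had 68.6, 60.96 and 59.5 CPM after 45 min, overlapping noN, and the difference of 0.31 did not pass (edgeR adjusted p = 0.4689). In N it was thus low when noN was already up. Its membership rests on the later times, with 79.8, 76.2 and 67.9 CPM in N after 120 min against 36.1, 33.9, 16.8 and 21.6 CPM in noN. After 15 min, the other gene lower in N was Zm00001d051554, with -1.24 (SE 0.43, edgeR adjusted p = 0.02589). It lost this call in 4 of the 6 fits, with an adjusted p of up to 0.09538 in edgeR, and was higher by 2.20 after 45 min. Its L in noN was 1.66 after 10 min, 3.91 after 15 min and 2.00 after 20 min, while in N it climbed from 2.03 to 2.61 and 2.94. In noN 13 of the 80 genes stood 1 or more above noN at 0 min after 15 min, against 5 after 10 min and 5 after 20 min.

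The genes were spread over all 10 chromosomes, with 13 on chromosome 1, 12 on chromosome 8, 5 each on chromosomes 6 and 7 and 1 on an unplaced contig, and 34 on the plus and 46 on the minus strand. Their summed exon length ran from 168 to 5988 bases with a median of 1725. Counting neighbours on the same chromosome up to 200 kb apart, 3 pairs were found. The closest was Zm00001d054057 (chromosome 4, 245638263 to 245639837, plus strand) and Zm00001d054060 (245649222 to 245650796, minus strand), which face each other with 9384 bases between them, no other feature of the table in the gap, and exon lengths of 1575 bases each. If they are near-identical copies, reads that fit both would be left out of both counts, which could not be checked without the sequence.

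Both genes of that pair were at or near 0 counts in noN at 0 min and had their highest group mean in N after 120 min. Zm00001d054057 had 2, 8 and 5 counts in N after 10 min, 17, 26 and 21 after 20 min, 92, 70 and 85 after 45 min, and 123, 163 and 179 after 120 min, against 1, 6 and 0 in noN after 10 min, 2, 2 and 1 after 20 min, 3, 0 and 4 after 45 min, and 25, 10, 4 and 3 after 120 min. N exceeded noN by a log2 difference of 5.52 after 45 min (SE 0.79, edgeR adjusted p = 1.103e-06). Zm00001d054060 had 0, 0 and 0 counts in N after 10 min, 2, 5 and 2 after 20 min, 13, 10 and 37 after 45 min, and 66, 120 and 101 after 120 min, against 0, 2 and 0 in noN after 10 min, 0 in each library after 20 min, 0, 0 and 1 after 45 min, and 4, 2, 1 and 0 after 120 min. With a floor of 3 counts over the group in place of 0, it was higher in N after 45 min than after 10 min by a log2 change of at least 4.38. Apart from the joint test over the noN times up to 45 min, it was the only one of the 80 with groups at 0 counts in these comparisons. The noN libraries of 5 min also enter that joint test, and Zm00001d054057 had 0 counts in each of them. The other pairs were Zm00001d033539 with Zm00001d033543 on chromosome 1, 113756 bases apart with 1 feature between them, and Zm00001d026501 with Zm00001d026509 on chromosome 10, 105094 bases apart with 5 features between them.

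The 11 regulators that met the same thresholds, and were left out for being regulators were tested in the same unused libraries. All 11 were higher in N after 45 min than after 10 min, against 5.04% of all tested genes. The median log2 change was 2.28 for the 80 genes and 2.23 for the 11 regulators. In N against noN after 45 min 10 of the 11 were higher, against 13.4% of all tested genes. The median there was 2.67 for the 80 genes and 2.58 for the 11 regulators. In the test of the N effect over time 8 of the 11 passed as higher, against 0.721% of all tested genes. No test of the difference between these groups was run.

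The authors' deposited table of a regulatory network gives a weight for 449624 pairs of 196 regulators and 2294 targets, and 58 of the 80 genes are among its targets in the authors' deposited table. In the authors' deposited table the highest weight of these 58 came from 28 different regulators. Zm00001d010617 gave the highest weight to 11 of them (18.97%), against 119 of the 2236 other targets (5.32%), in the authors' deposited table. Zm00001d034783, 1 of the 11 regulators that met the thresholds, gave it to 6 of them (10.3%), against 130 of the others (5.81%), in the authors' deposited table. All 11 of them together gave it to the same number, 6 of the 58 (10.3%), against 177 of the 2236 others (7.92%), in the authors' deposited table. The median weight to the 58 was 0.0297 for the 11 and 0.0403 for the other regulators in the authors' deposited table. Zm00001d010617 and Zm00001d034783 were named after their counts were seen. The table comes from the same study and the making of its weights is not stated in the sources used here, so these shares describe the table and do not test the genes.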

How the data were processed

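Per the labels' protocols, libraries were made from roots with a 3' mRNA kit with molecular identifiers, so reads come from near the ends of transcripts. Per the submitters' processing notes, reads were handled with fastp 0.21.0, UMI-tools 1.1.1, the aligner STAR 2.7.6a and the counter featureCounts 2.0.1. The deposited counts, per the file headers, are whole numbers per gene on the sense strand, for AGPv4 annotation release 37, and the command given there does not turn on counting of reads with several alignments, so near-identical copies are uncertain. The authors' deposited quantile normalized table, a score rounded to whole numbers, leaves out replicate 4 of noN at 120 min and was used as an alternative. A network table, also deposited, gives a score per pair of regulator and target and was used as a description.

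From the counts, the filterByExpr function with the 19 groups, a minimum count of 10 and a minimum total of 15 kept 18872 genes, which hold 99.7% of all counts. The main test was edgeR 4.0.16 (R 4.3.3), quasi-likelihood with TMM scaling, 1 mean per group over the 58 libraries and 39 residual degrees of freedom, with Benjamini-Hochberg adjustment over the 18872 genes. CPM per library are TMM scaled. Log2 changes have standard errors (SE) from this fit. Alternatives were DESeq2 1.42.0, limma 3.58.1 on log2(value + 1) of the quantile table, DESeq2's size factors in edgeR, no filter, a replicate block, removal of a trend with gene length, a fit of only the groups compared, and leaving out each library in turn. Replicates are separate pools of seedlings per the labels' protocols, and no 2 libraries of a group agreed within sampling noise. Replicate 4 of noN at 120 min stood apart from the others of its group. Its pairs had a chi-square of counts per degree of freedom of 13.4 to 15.4, against 3.75 to 6.72 among the others. It entered the group means of L that the rule used. Same-numbered N and noN libraries did not deviate together (correlations of -0.29 to 0.26 over 27 pairs), so the numbers do not pair them.

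The genes and lists were chosen with earlier results of these data known. The rule for named genes was the 2 with the smallest p for N at 45 against 10 min in each direction, and no gene was lower; genes named otherwise are said to be. The table of gene names available was of another assembly and matched none of the 80 identifiers, so pathway lists had no members and were not tested, and no sequence is shown. Coordinates are from the count table.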

Additional observations from a re-analysis of the deposited data

Results flagged for a closer look

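The N effect differed between 2 times, by the test of that difference itself. The change between 10 and 45 min in N minus the same change in noN was 4.40 on the log2 scale for Zm00001d025015 and 2.69 for Zm00001d032546. These 2 genes were chosen on N at 45 against 10 min, whose libraries this test shares. In edgeR 36 of the 80 genes passed this test at an adjusted p of 0.05, or 25 without replicate 2 of noN at 10 min. The libraries of 10 and 45 min were taken from different pools of seedlings, so each difference is between groups and not within plants.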

How the results depend on the processing

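The 2 named genes kept their direction and their side of the threshold in all 126 values under the alternatives, library omissions included. The counts for the mean N effect, N at 45 min against 10 min, the change over time and N against noN at 15, 20 and 45 min stayed within 1.5 times in all alternatives. The count for the change over time fell to 25 genes (main 36) without replicate 2 of noN at 10 min. With only the groups compared in the fit, 8 genes (main 15) were higher in N at 10 min, 17 (main 26) at 20 min against 10 min and 0 (main 4) at 15 min against 10 min by edgeR, where 27 were higher at an unadjusted p under 0.05. DESeq2 called 7 genes at 15 min against 10 min and limma 3. Leaving out each library in turn gave 0 to 6 genes at 15 min against 10 min, 17 to 25 at 20 min against 10 min, 9 to 13 in N against noN at 10 min, and 12 to 17 (main 20) in noN at 45 min against 0 min. The count of 0 came without replicate 1, with 23 genes at an unadjusted p under 0.05, or without replicate 2, with 25, of N at 10 min. Fewer libraries enter these fits, and why the calls were lost was not tested. With a replicate block 67 genes passed for the mean N effect, 76 for N at 45 min against 10 min and 39 for the change over time, and the block moved no count by over 1.5 times. Same-numbered libraries correlated over 0.1 in 7 of 27 pairs, and the own number was the highest in 10, so the block is not a pairing of plants. Members first called in N against noN at 45 min, or not called, had medians of 69.0 and 32.5 counts per N library of 45 min. The part of this depth in the calls was not tested.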
